A study of Caenorhabditis elegans with 2 samples.

Results

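The cuticle collagen genes rol-6, col-41, col-141 and col-142 were examined for regions recovered with SMA-3 in L2 larvae of Caenorhabditis elegans. They are 4 of the 19973 protein-coding genes of the annotation and were taken by name, as collagens tied to body size control by the DBL-1 pathway. For each gene, all regions inside it or within 5000 bp of it were collected from 4 lists on the ce11 build: the optimal list, the pooled list and the list of each replicate. Regions were placed by their rank in column 7, a signal value from the authors' peak calling. Rank 1 is the highest signal, and ranks are read within a list only.

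The study immunoprecipitated SMA-3 fused to GFP from whole hermaphrodites, in 2 biological replicates of 1 group. All animals were of strain CS152, which carries sma-3(wk30) and the transgene qcIs[gfp::sma-3+rol-6], so copies of rol-6 came with the transgene as its marker. Larvae were collected 24 hours after release from a synchronised, starved L1 stage. The description names an antibody to GFP, whereas the antibody label reads sma-3. The labels place GFP before SMA-3 in the strain name and at the C terminus in a note, and give neither the promoter of the transgene nor its copy number. Whole animals hold many cell types besides the epidermis that makes cuticle, and no untagged immunoprecipitation was analysed here. The optimal list held 4205 regions, which were the 4205 highest of the 30000 in the pooled list, and each replicate list held 30000. Read depth is unknown.

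Cuticle collagens are short secreted proteins built around repeats of glycine followed by 2 other residues. The epidermis makes them in waves around each molt, cross-links them into the cuticle, and changes in single collagens can make worms long, short, blistered or twisted. The DBL-1 ligand, a BMP-like signal, acts through type I and type II receptors on the Smad proteins SMA-2, SMA-3 and SMA-4, and animals lacking the pathway are small. Known altered forms of ROL-6 make the body roll, which is why rol-6 serves as a visible transgene marker.

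The 4 genes lie at 3 places in the genome. On chromosome V, col-141 (WBGene00000714, 6829704 to 6830739) and col-142 (WBGene00000715, 6831177 to 6832256) stand in tandem on the plus strand, 437 bp apart, with 2 exons each. The gene col-41 (WBGene00000618) lies on X at 15175032 to 15176481 on the minus strand, also with 2 exons. It sits inside an intron of 1826 bp of ucr-2.2, a gene for a core subunit of respiratory complex III transcribed the other way. The gene rol-6 (WBGene00004397) lies on II at 8733050 to 8734239 on the plus strand, with 3 exons. All 4 gene boundaries were identical in the Ensembl and RefSeq annotations.

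Only 2 optimal peaks lay near these genes. The central 300 bases of the first and the part of the second that lies outside ocr-3 follow, with the DNA just upstream of the 3 genes whose start site had no optimal summit within 500 bp. Capitals mark matches, on either strand, to any of 5 Smad-type motifs: the short Smad box GTCTG, its extension CAGACA (read on the other strand), the GC-rich forms GGCGC and also GCCGNCGC, and the palindrome GTCTAGAC. The strand shown is that of the gene, and the plus strand for both peak stretches. The sequences are RefSeq's, of the assembly WBcel235, which has the coordinates of ce11.
Centre of the peak between col-141 and col-142, V:6830805-6831104, plus strand: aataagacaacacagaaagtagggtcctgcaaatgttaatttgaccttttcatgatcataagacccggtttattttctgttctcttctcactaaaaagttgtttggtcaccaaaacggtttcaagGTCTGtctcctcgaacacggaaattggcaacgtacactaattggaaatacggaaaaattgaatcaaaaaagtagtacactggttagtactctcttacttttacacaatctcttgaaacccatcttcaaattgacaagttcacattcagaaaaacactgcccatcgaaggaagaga
Part outside ocr-3 of the peak beyond col-41, X:15173637-15173794, plus strand: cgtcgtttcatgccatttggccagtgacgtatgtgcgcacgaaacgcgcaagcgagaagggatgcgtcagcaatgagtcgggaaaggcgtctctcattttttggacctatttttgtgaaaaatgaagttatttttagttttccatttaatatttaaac
Upstream of col-41, X:15176482-15176731, minus strand: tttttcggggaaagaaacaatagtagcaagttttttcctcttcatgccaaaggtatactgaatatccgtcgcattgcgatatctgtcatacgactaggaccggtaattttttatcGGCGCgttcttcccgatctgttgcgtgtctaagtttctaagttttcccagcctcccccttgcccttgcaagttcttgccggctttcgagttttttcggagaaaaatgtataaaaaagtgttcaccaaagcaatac
Upstream of col-141, V:6829454-6829703, plus strand: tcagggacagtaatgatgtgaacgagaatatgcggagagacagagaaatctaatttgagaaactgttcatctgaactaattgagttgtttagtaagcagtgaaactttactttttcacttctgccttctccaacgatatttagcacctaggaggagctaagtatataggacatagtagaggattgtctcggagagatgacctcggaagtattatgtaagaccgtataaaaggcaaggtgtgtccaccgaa
Upstream of rol-6, II:8732800-8733049, plus strand: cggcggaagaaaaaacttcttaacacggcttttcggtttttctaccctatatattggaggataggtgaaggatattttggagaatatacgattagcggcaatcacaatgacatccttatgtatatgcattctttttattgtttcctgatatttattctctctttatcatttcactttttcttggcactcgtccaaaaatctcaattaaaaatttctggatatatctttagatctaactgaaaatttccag

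In the optimal list, 3 of the 4 genes had a peak in the gene or within 5000 bp, compared with 39.2% of all protein-coding genes. The genes col-141 and col-142 were counted through the same peak, col-41 through a peak that lay close to another gene's start site, and rol-6 had none. In the pooled list the same 3 genes had a region, compared with 77.5% of protein-coding genes. The lists of replicates 1 and 2 also gave 3 of 4, compared with 84.7% and 82.2%. In these 3 long lists, which by their names hold peaks and background, a region nearby was common among all genes. With 1 group and 4 genes taken by name, the counts are a description and were not tested.

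**Figure D1:**
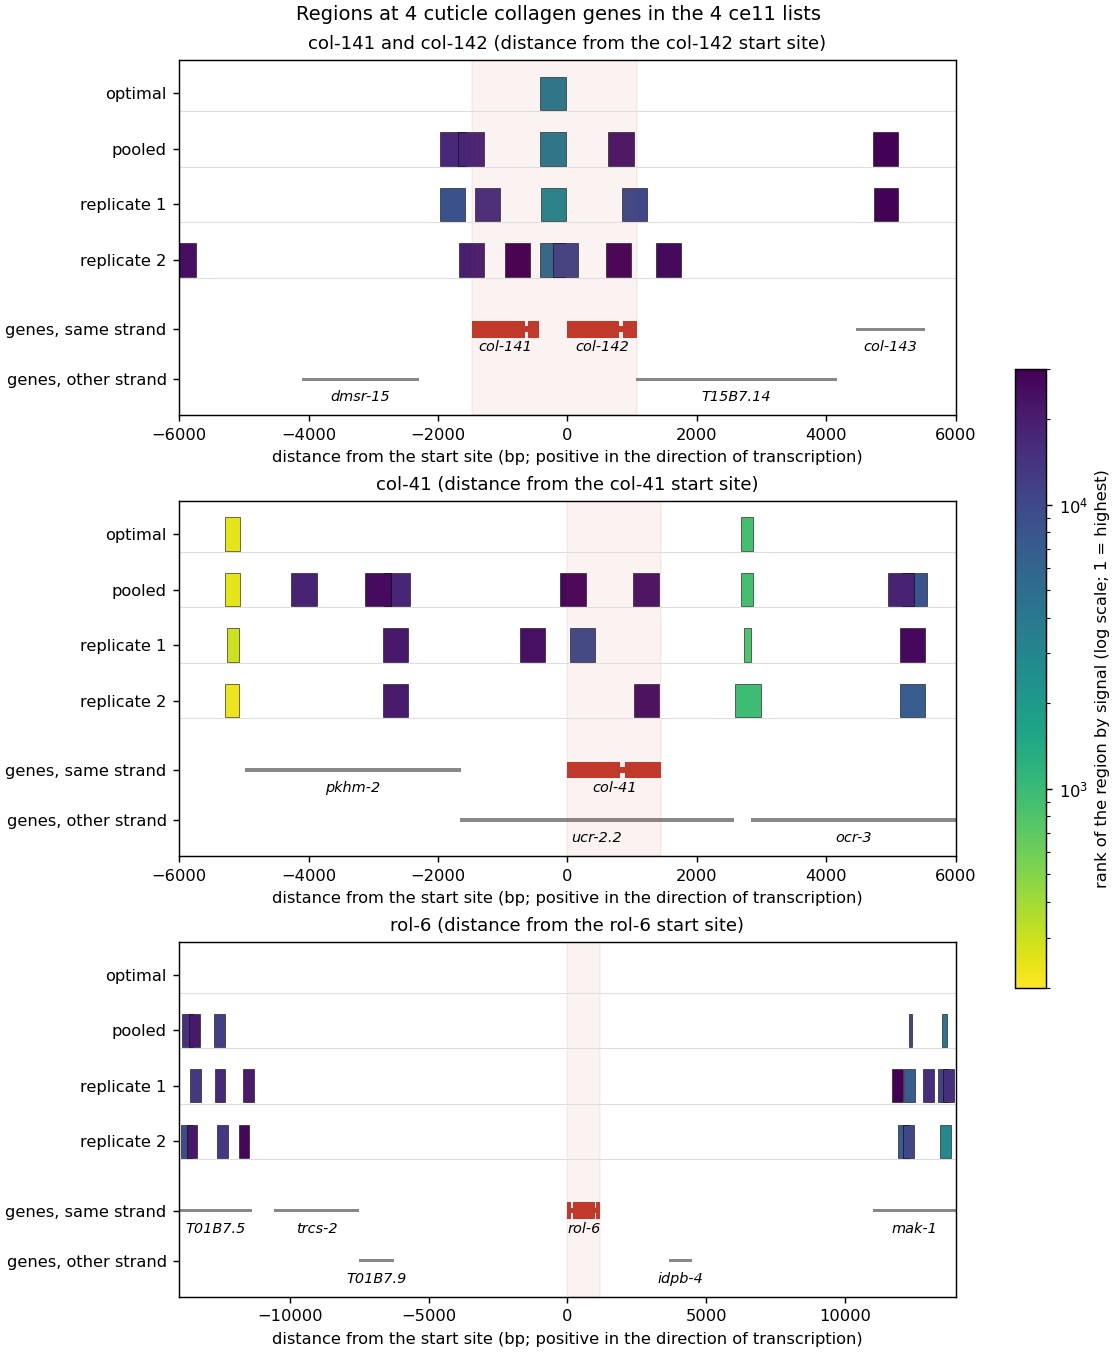
Regions of the 4 ce11 lists around the 4 collagen genes, drawn by distance in bp from the start site of col-142, col-41 and rol-6 and coloured by rank within their list on a log scale. Red boxes are exons of the 4 genes and grey lines other protein-coding genes; the optimal peak lies in the 437 bp between col-141 and col-142, col-41 has its peak beyond its 3' end in front of ucr-2.2, and no region lies within 10000 bp of rol-6.

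The peak at col-142 was the only one of these that stood directly in front of a collagen start site. It ran from 6830755 to 6831154 on V, inside the sequence between the 2 genes and overlapping neither. Its summit at 6830955 lay 222 bp upstream of the start site of col-142 and 216 bp past the end of col-141. The signal was 75.6 and the rank 3870 in both the optimal and the pooled list, so 335 of the 4205 optimal peaks (7.97%) had a lower signal. The lowest signal in the optimal list was 70.1. The peak therefore stood near the lower limit of that list, far below the one beyond col-41.

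Both replicates placed a region at the same position, but not at the same rank. In replicate 1 it ran from 6830765 to 6831148, with its summit at 6830957, a signal of 39.9 and rank 3024 of 30000. In replicate 2 it ran from 6830752 to 6831141, with its summit at 6830947, a signal of 34.9 and rank 5284. The summits were 10 bp apart, compared with a median of 20 bp over the 4197 optimal peaks with a region in both replicates. Rank 5284 lies outside the 4205 highest regions of replicate 2, as it did for 348 of the 4205 optimal peaks (8.28%). A second region of replicate 2 overlapped this one, with its summit at 6831147, 30 bp before the start site of col-142, and rank 10847. Replicate 1 had no region with its summit there.

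In the peak at col-142, the motif GTCTG occurred 1 time, starting 25 bp before the summit. The motif is one of the short sequences known to bind Smad proteins. It was present in 24.3% of the 4205 optimal peaks within 75 bp of the summit, and in 22% of the windows of 250 bp upstream of the 19973 gene starts. The other 4 motifs had no match in the 437 bp between the genes. Every 32-base word of this peak was unique in the genome, as were 98.8% of the words of col-141 and 86% of those of col-142.

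Regions at the start of col-141 itself were weak and overlapped only in part between the replicates, with summits at different positions. Replicate 1 had a region at 6829211 to 6829594, with rank 8656 and a summit 301 bp upstream of the gene. It had another at 6829752 to 6830135, with rank 14904 and its summit 240 bp into the gene. Replicate 2 had one at 6829499 to 6829888, with its summit 10 bp upstream and rank 19885. The pooled list held regions with summits 298 and 15 bp upstream of the gene, at ranks 16967 and 17755, and the optimal list neither. Inside col-142, replicate 1 had a region at 6832020 to 6832403 with rank 9849. Replicate 2 had one overlapping it in part, at 6831772 to 6832161 with rank 27750. Over the 250 bp upstream of col-141 none of the 5 motifs had a match.

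At col-41 the nearest optimal peak had a higher rank but lay 1238 bp beyond the 3' end of the gene. It ran from 15173614 to 15173794 on X, with its summit at 15173689, a signal of 204 and rank 890. In the optimal list 3315 peaks (78.8%) had a lower signal. The summit was 2792 bp downstream of the start site of col-41, 53 bp past the end of ocr-3, a gene for a TRPV channel, and 215 bp upstream of the start site of ucr-2.2. By nearest start site the peak belongs to ucr-2.2, not to col-41.

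The replicates gave this peak closer ranks than the one at col-142. Replicate 1 had it at 15173646 to 15173757, with its summit at 15173705, a signal of 90.6 and rank 793. Replicate 2 had it at 15173495 to 15173884, with its summit at 15173690, a signal of 116 and rank 963. The summits were 15 bp apart. None of the 5 motifs had a match within 75 bp of the summit. Every 32-base word of the peak was unique in the genome.

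A stronger peak lay just outside the limit of 5000 bp from col-41. It ran from 15181542 to 15181779, starting 5061 bp from the start site of col-41 on its upstream side, with a signal of 369 and rank 246 in the optimal list. It ranked 291 in replicate 1 and 232 in replicate 2. Its summit was 202 bp upstream of the start site of pkhm-2, which lies between the peak and col-41 on the same strand as col-41. The 2 optimal peaks nearest col-41 thus both lay just upstream of another gene.

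Within col-41 the regions were of low rank, and those of the replicates did not overlap. Replicate 1 had a region at 15176060 to 15176443, with its summit 229 bp into the gene in the first exon, a signal of 15.4 and rank 9506. Replicate 2 had no region overlapping it, and its single region in the gene, at 15175068 to 15175457, ranked 23962. The pooled list had 2 regions in the gene, at ranks 23246 and 26825. In the 250 bp upstream of col-41, GGCGC occurred 1 time, a motif present in 11.8% of all such windows and in 23.5% of the windows around optimal summits. The window of col-41 had a GC content of 42.4%, compared with medians of 33.2% over all upstream windows and 43% over the windows around optimal summits. The other 4 motifs had no match there.

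**Figure D2:**
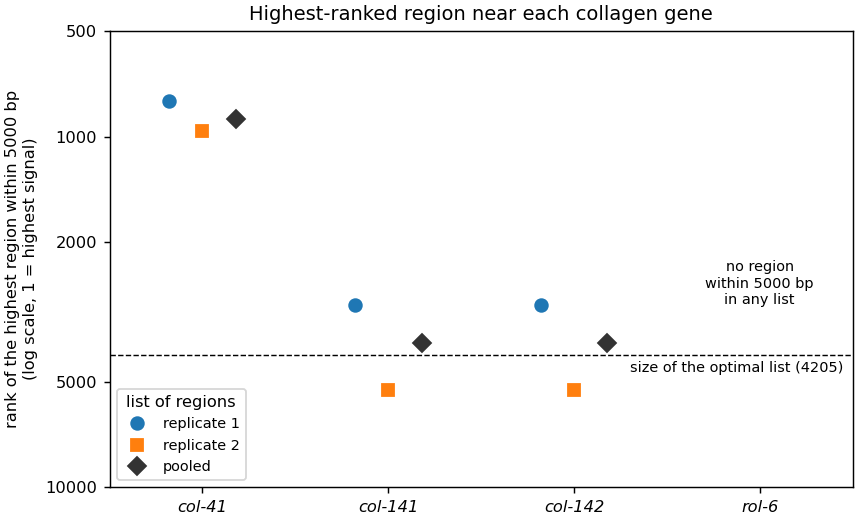
Rank of the highest-signal region within 5000 bp of each gene in the replicate 1, replicate 2 and pooled lists, on a log scale with high ranks at the top. Near col-41 the ranks are 793, 963 and 890; the peak shared by col-141 and col-142 ranks 3024, 5284 and 3870, with replicate 2 below the dashed line at 4205; rol-6 has no region.

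At rol-6 no list held a region within 10000 bp. The nearest optimal peak lay 12882 bp downstream, at 8747121 to 8747797 on II, with a signal of 163 and rank 1335. On the upstream side the nearest optimal peak was 82018 bp away. Of all protein-coding genes, 39.8% were at least as far from an optimal peak as rol-6. Its distance in this list was one shared by many genes.

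In the long lists rol-6 stood farther from any region than most genes. The nearest pooled region was 11128 bp away, near mak-1, a gene for a MAP kinase-activated protein kinase, with rank 10243. Only 10.2% of protein-coding genes were at least as far from a pooled region. The nearest regions in replicates 1 and 2 were 10527 and 10727 bp away, distances reached by 5.72% and 7.47% of genes. The flanking regions on the other side began 12362 bp away in the pooled list, 11311 bp in replicate 1 and 11472 bp in replicate 2. Of the 32-base words of the gene and 5000 bp on each side, 99.9% were unique in the genome of the reference.

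The sequence of rol-6 is present both in its own place and in the transgene, whose marker the strain label names only as rol-6. Where the transgene copies are identical to the gene, their reads cannot be told apart from reads of the gene itself. The effect of these copies on the lists was not tested, since no coverage was analysed here. None of the 5 motifs had a match in the 250 bp upstream of rol-6.

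**Figure D3:**
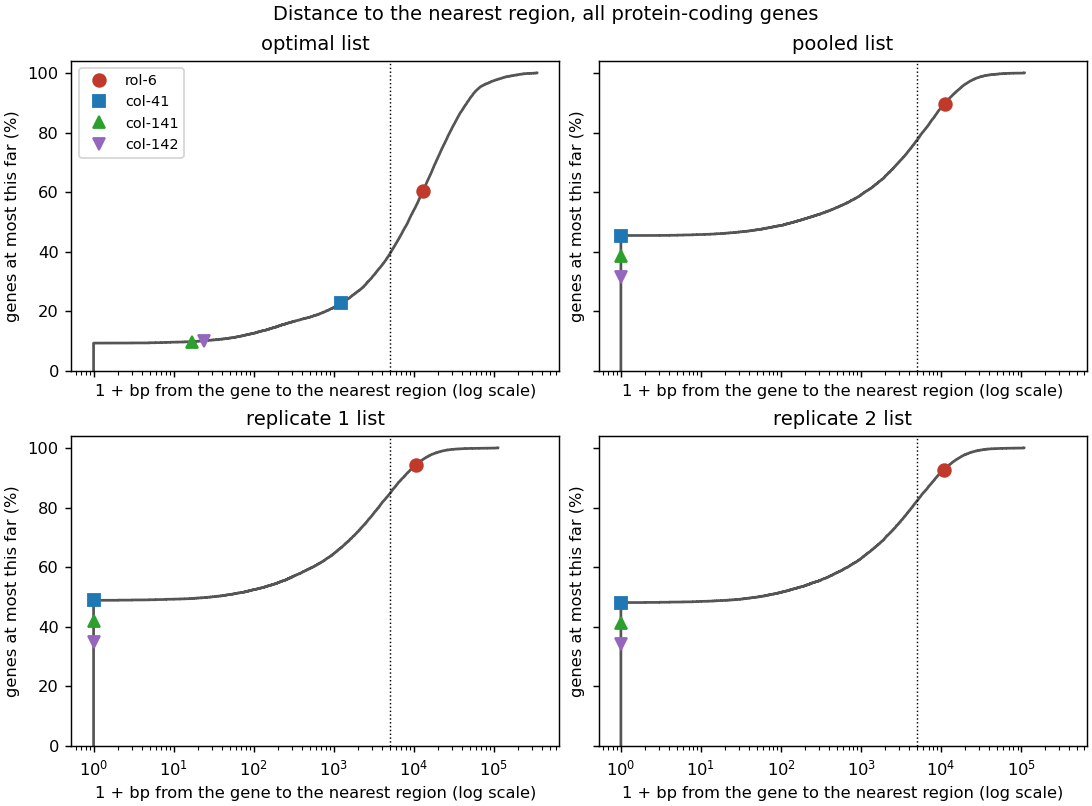
Cumulative share of the 19973 protein-coding genes by distance to the nearest region, in 1 plus bp on a log scale, for each of the 4 lists, with the 4 collagens marked and the 5000 bp limit dotted. The gene rol-6 lies at 12882 bp in the optimal list and between 10527 and 11128 bp in the other 3, while the other 3 genes overlap a region in each long list; markers at the same distance are set below one another.

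Distance to the start site separated col-142 from the other 3 genes. An optimal summit within 500 bp upstream of the gene start was found at 1 of the 4 genes, col-142, and at 10.1% of all protein-coding genes. This distance was chosen after the positions were known. By the same rule, 15 of the 153 other genes named col- and a number had one (9.8%), as did 1 of 19 collagens known for body shape, dpy-10. Among 20 genes of the DBL-1 pathway, 6 had one (30%): adt-2, sma-2, sma-6, sma-10, sup-17 and unc-40.

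The same peaks counted for other genes too. The peak at col-142 lay within 5000 bp of 6 protein-coding genes: col-141, col-142, T15B7.14, dmsr-15, T15B7.8 and col-143. The next collagen of the cluster, col-143, was 4481 bp from it, and its start site was 4680 bp from the summit. A region overlapped col-143 in the pooled list and in replicate 1, at ranks 28985 and 28902, and none did in replicate 2. The peak beyond col-41 lay within 5000 bp of 4 genes: ocr-3, ucr-2.2, col-41 and pkhm-2.

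Counted over all signal levels, the 3 genes with regions had more of them than the median over all genes, and their order differed by list. That median includes genes with none, whereas rol-6, with 0 regions, is left out here, so the comparison favours the 3 genes. In replicates 1 and 2, col-41 had 5 and 4 regions, col-142 had 5 and 6, and col-141 had 4 and 7, compared with a median of 3. At least as many were found at 39.7% and 49.2% of genes for col-41, 39.7% and 32.1% for col-142, and 49.4% and 25.1% for col-141. In the pooled list col-41 had 8 regions within 5000 bp, col-142 had 5 and col-141 had 4, compared with a median of 3 over all protein-coding genes. At least 8 regions were found at 20.6% of genes, at least 5 at 39.9% and at least 4 at 48%. Near col-41, the pooled regions other than those at ranks 890 and 8123 had a −log10 q of at most 0.434. Near col-141 and col-142, those other than the shared peak had at most 0.484. Some of these weak regions overlapped one another, so the counts are not of separate sites. The highest region of col-41 was matched or exceeded at 11.9% of all protein-coding genes, and that of col-141 and col-142 at 37.3%. In replicates 1 and 2, 10.5% and 13.1% of genes matched or exceeded col-41, and 31.5% and 44.4% matched or exceeded col-141 and col-142.

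Of the 10 regions of replicate 1 near the 4 genes, 7 overlapped a region of replicate 2 by at least 1 bp. No share over all regions of replicate 1 stands beside these overlap counts, so they do not show whether such overlap was usual. With a reciprocal overlap of 50%, 3 did: the peak at col-142 and 2 regions flanking col-41, at ranks 26964 and 21629 in replicate 1. In replicate 2 these 2 ranked 6938 and 20793, so the first differed widely in rank. The first also ranked 8123 in the pooled list. The region beyond col-41 at rank 793 failed this stricter rule, being 112 bp wide in replicate 1 and 390 bp wide in replicate 2, although its summits were 15 bp apart. Replicate 2 had 11 regions near the 4 genes.

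In the optimal list, collagens outside the 4 genes had peaks nearby about as often as all genes. Of the 153 other col- genes, 57 had an optimal peak within 5000 bp (37.3%), and of the 19 body shape collagens, 8 did (42.1%), compared with 39.2% of all protein-coding genes. The DBL-1 pathway genes had 15 of 20 (75%). The median distance to the nearest optimal peak was 7930 bp for the other col- genes, 6100 bp for body shape collagens, 1130 bp for pathway genes and 8460 bp for all protein-coding genes. In the pooled list 136 of the 153 other col- genes had a region (88.9%), as did 18 of 19 body shape collagens and 18 of 20 pathway genes, compared with 77.5% of all protein-coding genes. In that list both collagen groups thus lay above the share of all genes, which was not tested. Their regions there were weaker, with a median highest signal of 45.9 for other col- genes and 55.7 for body shape collagens. The median over all protein-coding genes with a region was 71.2. The 4 genes, the lists and the peaks share neighbourhoods, so their counts are not independent.

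**Figure D4:**
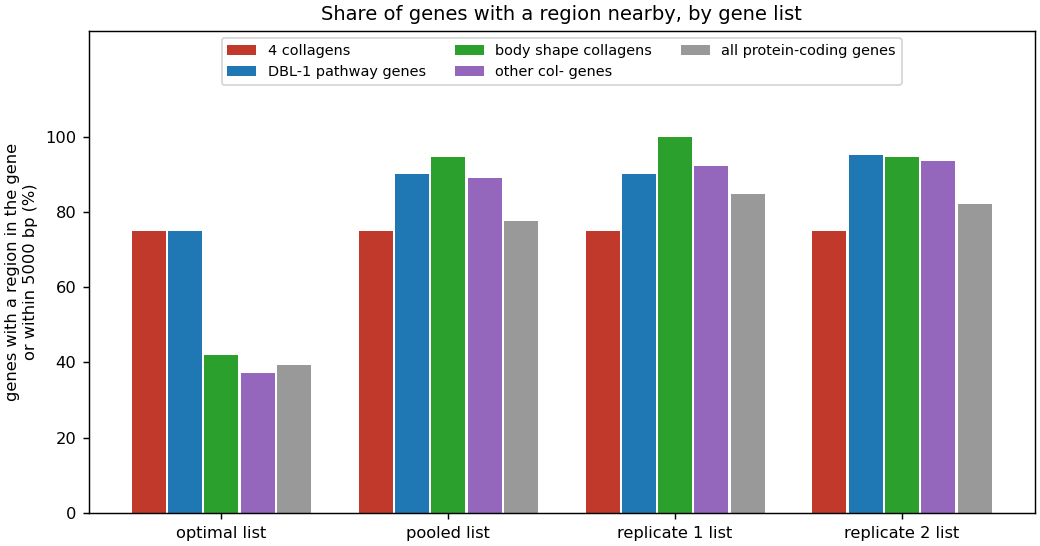
Percentage of genes with a region in the gene or within 5000 bp, by list of regions, for the 4 collagens, 20 DBL-1 pathway genes, 19 body shape collagens, 153 other col- genes and all 19973 protein-coding genes. In the optimal list the 4 collagens and the pathway genes both stand at 75%, and body shape collagens, other col- genes and all genes at 42.1%, 37.3% and 39.2%; in each of the long lists the 4 collagens stay at 75%.

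The highest optimal peaks of these gene lists had far higher signals than the one at col-142. These peaks were picked as the highest, whereas the one at col-142 stood near the lower limit of the optimal list. The contrast therefore follows from the choice. The median highest optimal signal was 188 for pathway genes, 138 for body shape collagens and 137 for other col- genes. It was 148 over all protein-coding genes, in each case counting only genes with an optimal peak. Among pathway genes, the Smad gene sma-2 had a signal of 831 at rank 21, with the summit 84 bp upstream of its start site. The Schnurri cofactor gene sma-9 had 559 at rank 79, with the summit 2904 bp upstream. The gene lon-1, a known target that restrains body length, had 496 at rank 117, with the summit 1543 bp upstream. Among body shape collagens sqt-2 had 254 at rank 587, dpy-5 had 205 at rank 886 and lon-3, a collagen that affects body length, had 201 at rank 913. The peak counted for lon-3 lay 1037 bp upstream of its start site, whereas those for sqt-2 and dpy-5 lay 5 bp upstream of enee-1 and 24 bp upstream of atp-3. Among other col- genes, col-111 had 547 at rank 86, in front of F29B9.11, and col-94 and col-93 shared a peak of 403 at rank 195.

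The 4 genes also differed in how their patterns compared with other collagens. Likeness was measured as the Euclidean distance over log10 of 1 plus the bp to the nearest region in the 4 lists. By this measure rol-6 was closest to col-56 (0.21), col-75 (0.22) and col-165 (0.45), none of which had a region within 5000 bp in any list. A region in no list within that distance was found at 5 of the 153 other col- genes (3.27%) and at 10.1% of protein-coding genes, rol-6 included in the second share. The closest to col-41 were col-145 (0.10), col-94 (0.11) and col-140 (0.17), with an optimal peak 990 to 1849 bp away. For col-141 and col-142, which share their optimal peak, the closest were each other (0.15). Less alike were col-181 (0.66 from col-141 and 0.51 from col-142) and col-166 (0.88 and 0.73), with an optimal peak at 76 and 127 bp. Since the closest genes were picked by these same distances, their near or absent regions follow from the choice.

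The proteins encoded by the 4 genes differ in length and sequence. ROL-6 has 348 residues, COL-41 has 428, COL-141 has 314 and COL-142 has 325. Repeats of glycine and 2 other residues, counted in runs of at least 3, numbered 56 in ROL-6, 51 in COL-41 and 50 in each of COL-141 and COL-142. The tandem pair was 69% identical over its aligned protein length, and COL-142 was 86.8% identical to COL-143. All other pairs among the 4 were between 23.8% and 31.7% identical. The shared peak thus lay between 2 closely related genes, and the gene downstream of it has a still closer relative in col-143, whose start site was 4680 bp from the summit.

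The letters TATAAA, on the gene's strand, were found in the 250 bp upstream of 3 of the 4 genes. The match of col-142 lies between the stretch printed above and the gene. It began 28 bp before the start site of col-41, 27 bp before that of col-141 and 43 bp before that of col-142. The 250 bp upstream of rol-6 did not hold these letters. They were present in 56.9% of the same windows at the 153 other col- genes and in 22.4% at all protein-coding genes. The 3 genes that held them were also the 3 counted with an optimal peak within 5000 bp. That count rests on only 2 peaks, a peak shared by col-141 and col-142 and a peak nearest to the start site of ucr-2.2. TATAAA was also chosen after its values were seen, and with 4 genes a link to the peaks was not tested.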

How the data were processed

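The 4 lists of regions on ce11 were analysed; those on ce10 were not used here. Per that listing, each replicate list came from the replicate's alignment and 1 further file shared by both replicates, the pooled list from both alignments, and the optimal list from these by an irreproducible discovery rate procedure. The deposited signal value of column 7 is the authors' own, of unstated scaling, and served to rank regions within a list. The deposited −log10 q of column 9 was not used for ranking. The aligner, peak caller, their versions and the depth are unknown here (not given in the sources used here), and no test or interval was computed.

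Genes came from Ensembl release 115 and sequences from RefSeq (both WBcel235), and every region ended within its chromosome. Distances run from the gene to the nearest base of a region. Proteins were translated from the annotated coding sequence and aligned globally (match 2, mismatch -1, gap opening -5, extension -0.5). Motifs were searched on both strands, and each CAGACA also holds the reverse complement of GTCTG. The members, lists and alternatives were chosen with earlier results of these data known. Named genes are the 4 members, genes nearest to their regions, the 3 leaders of each list and the 3 most similar col- genes; other genes, the 500 bp rule and TATAAA were chosen after their values were seen. The symbol ram-4 had no gene in the annotation. The distance code recovered all planted distances in data made for testing. Computations used Python 3.11.15, pandas 2.3.3, numpy 2.4.6, Biopython 1.88 and matplotlib 3.10.9.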

Additional observations from a re-analysis of the deposited data

How the results depend on the processing

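The count of 3 of 4 genes in the optimal list (39.2% of all genes) was the same within 2000 bp (26.7% of all genes) and 10000 bp (53.9%), with summits in place of intervals and with RefSeq boundaries. With the 2102 highest regions of the optimal list it was 1 of 4, col-41, compared with 24.8% of all genes. Leaving out replicate 1 or replicate 2, and taking the 4205 highest regions of the other, it was 1 and 3 (39.1% and 38.9% of all genes). The count was 1 because the region at col-142 ranked 5284 in replicate 2. In the pooled and replicate lists the count stayed at 3 under every alternative run, while the share of all genes ran from 65.3% to 93.8%. With so many genes counted, the steady 3 says little about these 4 genes. Leaving out a replicate from the pooled list gave 3 and 3, the counts of the other replicate's list (82.2% and 84.7% of all genes). Regions near the 4 genes shared by the replicates fell to 3 with a reciprocal overlap of 50%, against 7 with 1 bp, again without a share over all regions. Other col- genes with an optimal peak were 36 of 153 within 2000 bp and 86 within 10000 bp, against 57, and the shares of all genes moved likewise (26.7%, 53.9% and 39.2%). No paired analysis was possible because there is 1 group. Unknown depth means that the absence of a region at rol-6 is an absence from these lists only.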
